A study of Mus musculus with 6 samples.

Results

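The transforming growth factor beta (TGF-beta) ligands, receptors and feedback genes were followed in mouse small-cell lung cancer cells sorted by a reporter of Hes1, a transcriptional repressor that Notch signalling induces. The set holds 9 genes: the ligands Tgfb1, Tgfb2 and Tgfb3, the receptors Tgfbr1, Tgfbr2 and Tgfbr3, and the response genes Smad7, Skil and Pmepa1. Each was taken from the table row whose platform annotation named that gene and no other, and all 9 had a single such row among 22179 genes tested. Expression was read on 6 Affymetrix Mouse Gene 2.0 ST arrays, 3 of GFP-high and 3 of GFP-negative cells. Both groups came from mice with conditional knockout of Rb, p53 and p130 that also carried the GFP reporter allele for Hes1 and were given Adeno-Cre into the trachea, so all samples share these alleles and the induction. Tumours were taken 5 to 6 months after Cre and pooled from 3 mice, so an array reads a mixture of tumours rather than a single animal. The labels used here do not give the ages of the mice, their strain, the promoter that drove Cre or whether each replicate had its own pool. The sample titles call the replicates biological. As separate pools are not stated, p-values measure only how far these samples spread, which may not be the spread between mice.

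TGF-beta is secreted bound to its own propeptide, and latent TGF-beta binding proteins tether that complex to the matrix until integrins or proteases release the ligand. Free ligand binds the type II receptor TGFBR2, which activates the type I receptor TGFBR1. That kinase phosphorylates SMAD2 and SMAD3, and these enter the nucleus with SMAD4. The pathway is known for restraining the growth of normal lung epithelium and for inducing matrix genes, and low TGFBR2 has been described in human small-cell lung cancer.

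Hes1 followed the sort, at 3.54 ± 0.13 higher in GFP-high cells (log2 difference ± SE, n = 3 per group). Arrays of the same group correlated at 0.987 to 0.991 and arrays of different groups at 0.918 to 0.940, taken over genes, which do not vary independently. All 6 measured neuroendocrine markers (Chga, Chgb, Syp, Ncam1, Uchl1 and Insm1) were lower in GFP-high cells, and every measured marker of club and secretory cells (6), of alveolar type 2 cells (7) and of alveolar type 1 cells (6) was higher. The mean log2 level of the neuroendocrine list was 9.77 to 9.87 in the GFP-negative and 7.29 to 8.17 in the GFP-high arrays. The club and secretory list read 8.08 to 8.92 in GFP-negative and 12.54 to 12.72 in GFP-high cells. By limma 0 of 9 leukocyte markers passed, and 0 had an unadjusted p under 0.05, with a mean level of 5.42 to 5.81 among GFP-negative and 5.40 to 5.90 among GFP-high arrays. Likewise 0 of 4 platelet markers passed by limma (0 at an unadjusted p under 0.05), while 1 of 7 endothelial markers rose (Kdr) and 1 of 8 fibroblast markers fell (Dcn). Of the mesothelial markers 3 of 4 rose, and of 6 smooth muscle markers 1 rose and 1 fell. Over all genes 13.0% were called as higher and 17.0% as lower by limma. The single calls in the endothelial, fibroblast and smooth muscle lists lie near these shares. GFP-high replicate 3 held more neuroendocrine signal (8.17) than the other GFP-high arrays (7.52 and 7.29). GFP-negative replicate 2 held more club signal (8.92) than the other GFP-negative arrays (8.20 and 8.08).

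**Figure D1:**
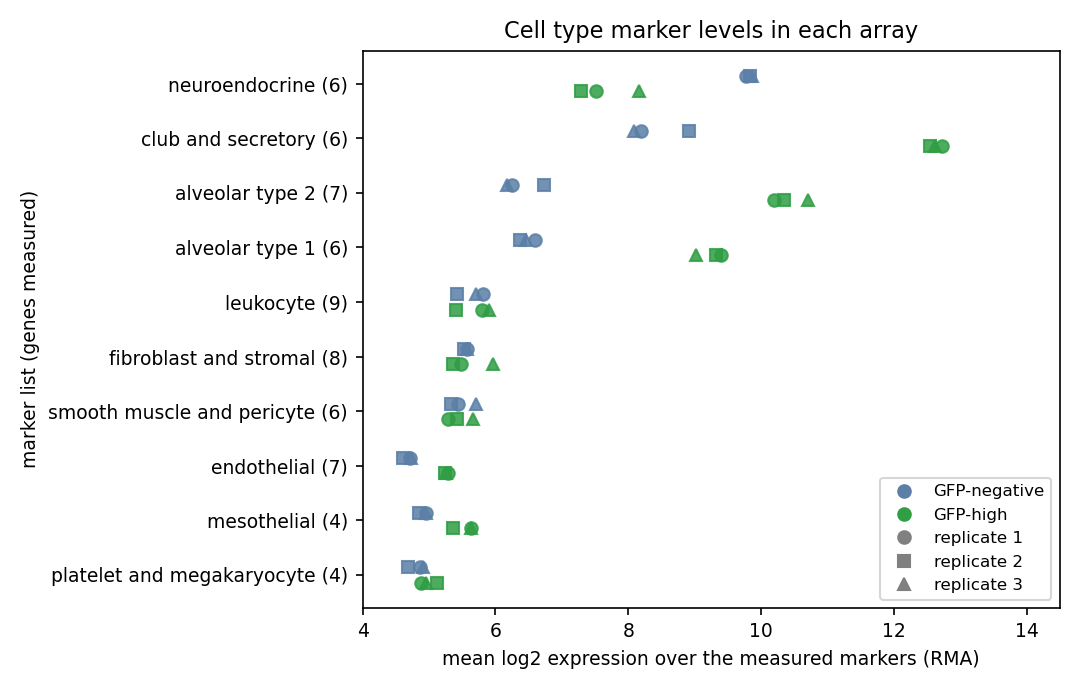
Mean log2 expression of 10 cell type marker lists (rows, genes measured in brackets) in each array. Blue symbols are GFP-negative and green symbols GFP-high arrays, and the symbol's shape gives the replicate. The neuroendocrine list is lower and the club and alveolar lists are higher in all 3 GFP-high arrays, while the leukocyte list overlaps.

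Of the 9 TGF-beta genes, 5 were higher in GFP-high cells, 2 were lower and 2 did not pass an adjusted p of 0.05 by limma. Tgfb2, Tgfb3, Tgfbr2, Smad7 and Pmepa1 rose, and Tgfb1 and Tgfbr3 fell. Over all genes tested 13.0% were called as higher and 17.0% as lower. The median log2 difference of the 9 genes was 1.02, beside 0.01 over all genes, and 7 of the 9 passed with a difference of at least 1, beside 11.7% of all genes; Tgfb3 (1.02) and Tgfbr3 (-1.05) lay close to that limit. For all 9 the values of the groups did not overlap, which held for 44.6% of all genes. The 9 genes were chosen with earlier results of these data known, so these shares do not test the set. In mean level they ranked from 52.0% to 95.9% of the way up all genes, which were not filtered for low values. These are bulk RNA levels of sorted populations, in which fewer cells of a type and less RNA per cell cannot be told apart. The GFP-high arrays are also those in which the club and alveolar markers rose. The part of this in the results of the 9 genes was not tested.

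**Figure D2:**
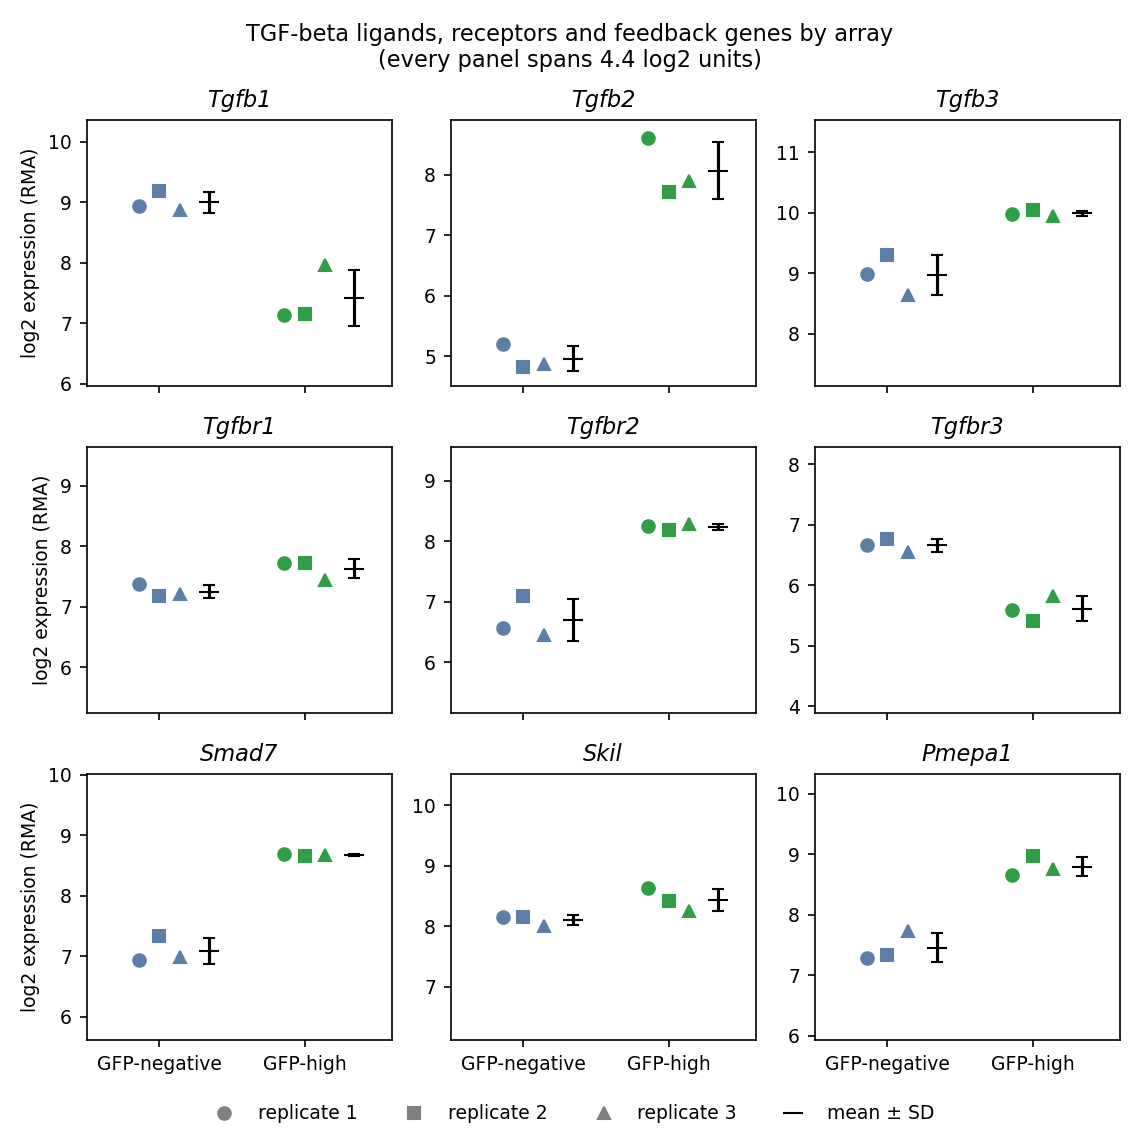
Log2 expression (vertical axis, RMA values) of each of the 9 genes in the 3 GFP-negative (blue) and 3 GFP-high (green) arrays, with the replicate shown by the symbol and the mean ± SD in black. Every panel has the same span, and the level of a gene cannot be set against that of another. Tgfb2 shows the widest gap between groups, and Tgfb1 and Tgfbr3 are the genes lower in GFP-high cells.

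The ligands moved in opposite directions. Tgfb2, the ligand that depends most on a co-receptor to reach TGFBR2, had log2 values of 8.60, 7.72 and 7.89 in GFP-high cells and 5.20, 4.82 and 4.87 in GFP-negative cells, here and throughout in the order of replicates 1, 2 and 3. Every GFP-high array lay well above every GFP-negative array, and GFP-high replicate 1 was the highest. The difference was 8.62-fold (log2 difference 3.11, 95% interval 2.59 to 3.62, adjusted p = 2.25e-05 by limma). The GFP-negative values lay below the array medians (5.86 to 5.96), where the deposited scale compresses differences and a level above background is not shown, so the fold holds for these values only.

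Tgfb1, the ligand best known from platelets, leukocytes and fibrosis, read 7.14, 7.16 and 7.96 in GFP-high cells and 8.93, 9.19 and 8.88 in GFP-negative cells. The GFP-high arrays were all lower, with replicate 3 closest to the GFP-negative ones. Tgfb1 fell by 1.58 on the log2 scale (± 0.22 SE, 2.99-fold, adjusted p = 0.000743 by limma), and without single arrays the difference was -1.85 (without GFP-high replicate 3) to -1.44. GFP-high replicate 3 also had the highest neuroendocrine level of its group, and the part of this in the result was not tested. Markers of leukocytes and platelets, cells rich in Tgfb1, did not pass between the groups (0 of 9 and 0 of 4 by limma). The median log2 difference of the leukocyte list was 0.11, with single markers from -0.46 (Ptprc) to 0.45 (Lyz2). The part of such cells in the Tgfb1 result was not tested.

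Tgfb3, a ligand of epithelial and palate development, read 9.97, 10.04 and 9.95 in GFP-high cells and 8.98, 9.30 and 8.64 in GFP-negative cells. The GFP-high arrays were nearly level with each other, and GFP-negative replicate 2 was the highest of its group. The rise was 1.02 ± 0.17 (log2 difference ± SE, 2.02-fold, adjusted p = 0.00171 by limma). Leaving out single arrays gave 0.85 (without GFP-negative replicate 3) to 1.18 (without GFP-negative replicate 2, the array with the most club signal in its group). The intervals of the ligands were apart: -2.09 to -1.08 for Tgfb1, 0.64 to 1.39 for Tgfb3 and 2.59 to 3.62 for Tgfb2. The difference between the ligands' changes was not itself tested.

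Promoter sequence from RefSeq (GRCm38.p6) was at hand for 4 of the 9 genes, Tgfb1, Tgfb2, Tgfbr1 and Tgfbr2. The 250 bases before the annotated start are printed for the ligand that fell and for the ligand and receptor that rose, so that the differently moving genes can be compared. Capitals mark matches, on either strand, to TATAAA (the TATA box), CACGTG (an E-box), CAGAC (a SMAD-binding element), TGGGAA (the core of the RBPJ site used by Notch) and CACNAG (the N-box bound by Hes proteins). No matches of these motifs overlapped each other.
Tgfb1 (chr7:25686752-25687001, + strand): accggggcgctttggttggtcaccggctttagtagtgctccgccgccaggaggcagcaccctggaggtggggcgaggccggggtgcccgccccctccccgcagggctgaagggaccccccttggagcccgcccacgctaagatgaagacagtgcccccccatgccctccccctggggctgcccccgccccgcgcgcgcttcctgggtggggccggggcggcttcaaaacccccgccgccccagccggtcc
Tgfb2 (chr1:186705990-186706239, - strand): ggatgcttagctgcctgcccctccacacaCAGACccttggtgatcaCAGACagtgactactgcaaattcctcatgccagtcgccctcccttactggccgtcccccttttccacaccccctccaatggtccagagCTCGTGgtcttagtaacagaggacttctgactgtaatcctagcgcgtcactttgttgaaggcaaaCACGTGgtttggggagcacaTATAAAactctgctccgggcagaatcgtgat
Tgfbr2 (chr9:116175364-116175613, - strand): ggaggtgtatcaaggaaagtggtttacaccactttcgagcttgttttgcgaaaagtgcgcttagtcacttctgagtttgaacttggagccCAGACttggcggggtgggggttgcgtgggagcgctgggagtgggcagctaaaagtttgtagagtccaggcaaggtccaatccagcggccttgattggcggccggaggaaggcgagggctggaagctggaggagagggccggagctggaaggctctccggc
The Tgfb2 window held TATAAA starting 31 bases and CACGTG starting 51 bases before the annotated start, 2 copies of CAGAC, and 1 CACNAG match read on the opposite strand. The Tgfbr2 window held 1 CAGAC, and none of the 5 motifs was found in the Tgfb1 window. The Tgfb1 window was 75.2% G and C against 53.6% for Tgfb2 and 58.4% for Tgfbr2. A window of Tgfbr1 (chr4:47352972-47353221), which did not pass, was likewise rich in G and C (74.8%) and held none of the 5 motifs. Another Tgfbr1 window was 52.8% G and C and held 1 CAGAC. A window like that of Tgfb1 was thus not particular to the gene that fell. Among 32851 promoter windows of the same length, 12.4% held TATAAA, 6.02% CACGTG, 42.2% CAGAC, 21.6% TGGGAA and 36.7% CACNAG. These matches are letters in a window, and binding was not measured here. RefSeq's record of Tgfb2 also holds transcripts that start further upstream.

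Of the receptors 1 rose, 1 fell and 1 did not pass. Tgfbr2, the ligand-binding type II kinase, read 8.26, 8.19 and 8.28 in GFP-high cells and 6.56, 7.10 and 6.45 in GFP-negative cells. The GFP-high arrays were close together, and GFP-negative replicate 2 stood above the other GFP-negative arrays. Tgfbr2 was 2.91-fold higher (log2 difference 1.54, 95% interval 1.15 to 1.93, adjusted p = 0.00022 by limma). Leaving out single arrays gave log2 differences of 1.41 (without GFP-negative replicate 3) to 1.74 (without GFP-negative replicate 2). GFP-negative replicate 2 had the highest club marker level of its group, and the part of this in the result was not tested.

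Tgfbr1, the signalling type I kinase, read 7.71, 7.71 and 7.44 in GFP-high cells and 7.37, 7.17 and 7.21 in GFP-negative cells. The groups did not overlap but came within 0.1 of each other. The log2 difference was 0.37 (95% interval 0.09 to 0.66, adjusted p = 0.0536 by limma), which did not pass. It passed without GFP-high replicate 3 (0.46, adjusted p = 0.0313), without the lowest 30% of genes (adjusted p = 0.0341), with quantile normalization (0.44, adjusted p = 0.0345) and with trend and robust settings (adjusted p = 0.0397).

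Tgfbr3, or betaglycan, a co-receptor without a kinase that presents TGF-beta and above all TGF-beta 2 to TGFBR2, went the other way. It read 5.59, 5.41 and 5.83 in GFP-high cells and 6.66, 6.76 and 6.56 in GFP-negative cells. All GFP-high arrays were lower, and all of them lay below the array medians. Tgfbr3 was 2.07-fold lower (log2 difference -1.05, 95% interval -1.36 to -0.74, adjusted p = 0.000496 by limma). Tgfb2 and this co-receptor therefore differed in opposite directions in the same arrays.

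Among the response genes Smad7 and Pmepa1 rose and Skil did not pass. Smad7, the inhibitory SMAD that TGF-beta induces and that recruits ubiquitin ligases to the receptor, read 8.69, 8.65 and 8.68 in GFP-high cells and 6.94, 7.34 and 6.98 in GFP-negative cells. The GFP-high arrays were almost identical (SD 0.02) and all above the GFP-negative ones. The rise was 1.59 ± 0.13 (log2 difference ± SE, 3.01-fold, adjusted p = 5.17e-05 by limma), and 1.51 to 1.71 without single arrays, highest without GFP-negative replicate 2, again the top GFP-negative array.

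Pmepa1, a TGF-beta target whose membrane protein binds SMADs and damps the signal, read 8.66, 8.97 and 8.75 in GFP-high cells and 7.30, 7.34 and 7.73 in GFP-negative cells. All GFP-high arrays were higher, and GFP-negative replicate 3 was the highest of its group. The difference was 2.53-fold (log2 difference 1.34, 95% interval 0.99 to 1.68, adjusted p = 0.000241 by limma). Skil, which encodes the SMAD corepressor SnoN, read 8.63, 8.42 and 8.25 in GFP-high cells and 8.16, 8.14 and 8.01 in GFP-negative cells. Its groups were separated by less than the spread within the GFP-high group. The log2 difference was 0.33 (95% interval 0.03 to 0.62, adjusted p = 0.0924 by limma), and with quantile normalization it passed (0.39, adjusted p = 0.0466).

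**Figure D3:**
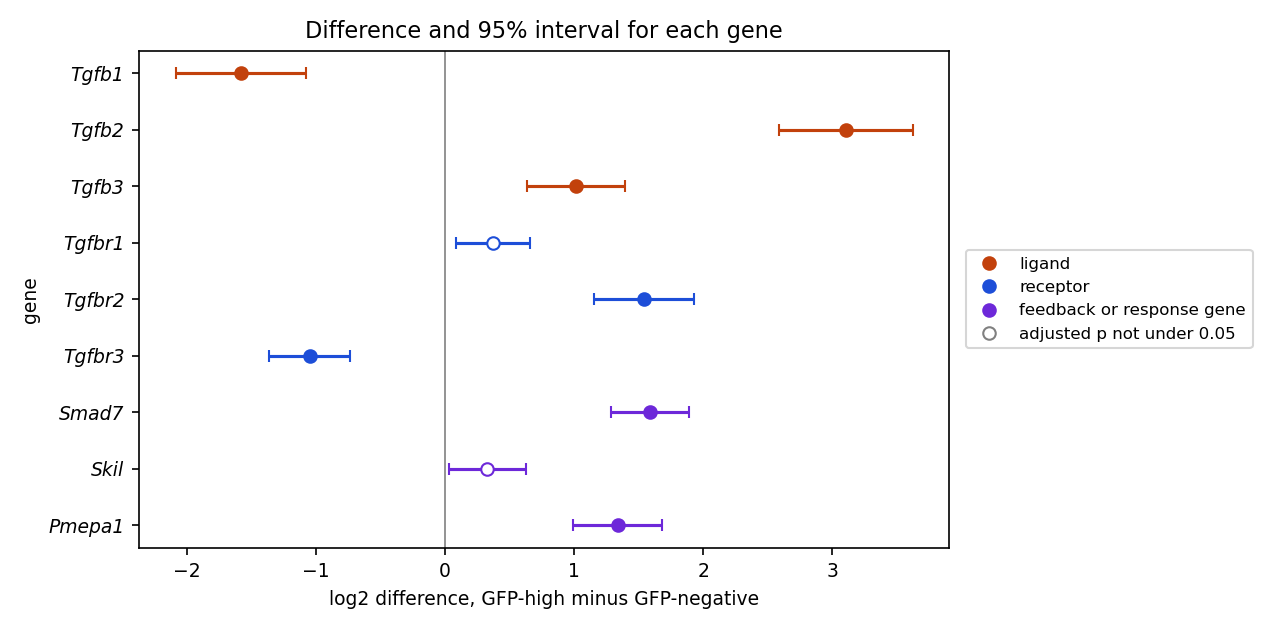
Log2 difference, GFP-high minus GFP-negative (horizontal axis), for the 9 genes with its 95% interval from limma, coloured by role. Open symbols, Tgfbr1 and Skil, did not pass an adjusted p of 0.05. Tgfb2 lies furthest to the right at 3.11, and Tgfb1 (-1.58) and Tgfbr3 (-1.05) lie left of 0.

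The other genes of the pathway were taken from 5 lists of 79 genes, of which 75 were measured. Of these 23 were higher, 14 were lower and 38 did not pass, with a median log2 difference of 0.10. Over all genes 13.0% were higher and 17.0% lower, and no list was tested as a set. Ltbp1, Itgb6, Htra1, Smad3, Nedd4l, Fn1 and, by its highest-mean row, Ccn2 each rose by more than 2 on the log2 scale.

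Genes that hold TGF-beta latent or release it were 6 up, 3 down and 9 not passing of 18 (median 0.16). Ltbp1, a latent TGF-beta binding protein, read 8.37, 8.03 and 8.86 in GFP-high cells and 5.15, 5.00 and 5.62 in GFP-negative cells. The groups were far apart (log2 difference 3.16 ± 0.23 SE, adjusted p = 2.42e-05 by limma), with the GFP-negative values below the array medians. Its relatives Ltbp3 (1.75 ± 0.19) and Ltbp2 (1.64 ± 0.18) rose as well, and Ltbp4 fell (-0.73 ± 0.17). The GFP-negative values of Ltbp2 (5.40 to 5.47) were likewise below the array medians. Itgb6 encodes the epithelial integrin subunit that pairs with the alpha-v chain to release TGF-beta 1 and TGF-beta 3 from their propeptides. It read 7.50, 6.69 and 7.25 in GFP-high cells and 4.97, 4.54 and 4.25 in GFP-negative cells, a rise of 2.56 ± 0.24 (adjusted p = 9.18e-05 by limma). Its GFP-negative values lay below the array medians, and a level above background is not shown for them. Its partner Itgav (0.28 ± 0.13, adjusted p = 0.139) and the alternative subunit Itgb8 (0.25 ± 0.26, adjusted p = 0.535) did not pass by limma, though Itgb8 passed as higher without GFP-high replicate 2 (0.58, adjusted p = 0.0347). The protease gene Htra1 rose by 2.09 ± 0.17, from GFP-negative values (4.71 to 5.22) that also lay below the array medians. Mmp14 of the same list rose by 1.30 ± 0.12. The matrix proteins thrombospondin 1 (Thbs1, -1.01 ± 0.15), which can activate latent TGF-beta, and decorin (Dcn, -1.47 ± 0.38), which binds it, fell. Dcn is also a fibroblast marker, and the other 7 measured fibroblast markers did not pass. Of all 8, 4 had an unadjusted p under 0.05, Dcn as lower and the collagen genes Col3a1 (0.50), Col1a1 (0.46) and Col1a2 (0.45) as higher. The Dcn call by limma was lost without GFP-negative replicate 2 (adjusted p = 0.0657), GFP-high replicate 1 (0.0614) or GFP-high replicate 2 (0.0690). A per-gene test without moderation called neither Dcn (adjusted p = 0.137) nor Ltbp4 (0.0779). Ltbp2, Ltbp4, Mmp14, Thbs1 and Dcn were singled out once their values were known.

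Of the other family receptors and SMADs 3 rose, 2 fell and 9 did not pass of 14 (median 0.05). Smad3, a receptor-activated SMAD that binds DNA, read 8.99, 8.87 and 8.86 in GFP-high cells and 6.20, 6.46 and 5.99 in GFP-negative cells. All GFP-high arrays were higher by more than 2 log2 units (difference 2.69 ± 0.14 SE, 6.44-fold, adjusted p = 3.23e-06 by limma). Its partner Smad2 read -0.31 ± 0.11 (adjusted p = 0.0742) and the common mediator Smad4 0.00 ± 0.11 (adjusted p = 0.984), and neither passed by limma. Smad2 passed as lower without the lowest 30% of genes (adjusted p = 0.0460) and with trend and robust settings (0.0416). Smad6, the inhibitory SMAD of the BMP branch, rose by 1.98 ± 0.15. The activin receptor gene Acvr2a fell (-0.73 ± 0.12), and Acvrl1, a type I receptor best known from endothelium, rose by 0.60 ± 0.11. Acvrl1 read low, with GFP-negative values (5.24 to 5.27) below the array medians and GFP-high values (5.71 to 5.96) near them. A level above background is not shown for it. The endothelial markers Pecam1 (-0.07) and Cdh5 (0.04) did not pass in these arrays, whereas Kdr rose by 3.87.

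Inhibitors and modifiers of the pathway were evenly divided, with 5 up, 5 down and 6 not passing of 16 (median -0.06). Nedd4l, a ubiquitin ligase that targets activated SMAD2 and SMAD3, read 10.84, 11.02 and 10.93 in GFP-high cells and 7.77, 7.94 and 8.41 in GFP-negative cells. The difference was 7.41-fold (2.89 ± 0.17 on the log2 scale, adjusted p = 5.96e-06 by limma). The corepressor Ski, a relative of Skil, rose by 1.14 ± 0.12. Bambi, a decoy receptor without a kinase domain, fell (-1.28 ± 0.17), and so did Strap, a partner of the receptors and Smad7 (-0.66 ± 0.12).

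Response genes outside the 9 were 7 up, 3 down and 6 not passing of 16 (median 0.46). Ccn2, connective tissue growth factor, rose by 2.51 ± 0.16 (5.68-fold) by its highest-mean row and by 1.63 as the mean of its rows, fibronectin (Fn1) by 2.39 ± 0.28 and the basement membrane collagen Col4a1 by 1.59 ± 0.14. Ccn2 read 8.40, 8.56 and 8.05 in GFP-high cells and 6.05, 5.76 and 5.68 in GFP-negative cells. In GFP-negative replicates 2 and 3, both Ccn2 and Col4a1 (5.59 and 5.77) lay below the array medians (5.86 and 5.95). Bhlhe40 (1.22 ± 0.14), Angptl4 (0.77 ± 0.18), Cdkn2b (0.53 ± 0.12) and Acta2 (0.36 ± 0.12, adjusted p = 0.0494 by limma) rose as well. The GFP-negative values of Angptl4 (5.24 to 5.73) lay below the array medians. The genes that fell were Snai2, a repressor active in epithelial-mesenchymal transition (-1.89 ± 0.45), the cell cycle inhibitor Cdkn1a (-1.29 ± 0.17) and Klf10, an early TGF-beta response factor (-0.80 ± 0.13). The call for Snai2 was lost in a per-gene test without moderation (adjusted p = 0.119). Bhlhe40, Angptl4, Cdkn2b, Acta2, Cdkn1a and Klf10 were likewise singled out once their values were known. Many genes of this list answer to other signals as well, and Cdkn1a is a p53 target in p53-deleted tumours.

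Ligands and inhibitors of the related activin, nodal and growth differentiation factor branches were 2 up, 1 down and 8 not passing of 11 (median 0.01). Activins and inhibins are dimers of inhibin subunits. The inhibin alpha gene Inha read 6.39, 5.97 and 6.78 in GFP-high cells and 8.16, 8.47 and 7.68 in GFP-negative cells, a fall (-1.73 ± 0.25, adjusted p = 0.00086 by limma). The beta B subunit Inhbb rose (1.17 ± 0.18), as did Fstl3, a secreted activin antagonist (1.52 ± 0.16). Gdf11 did not pass (-0.57 ± 0.25, adjusted p = 0.127 by limma), though it did without GFP-negative replicate 2 (-0.84, adjusted p = 0.0182) and with the replicate number as a block (adjusted p = 0.0153). For all these pathway lists, the GFP-high arrays are those in which the club and alveolar markers rose, and the part of this in the results was not tested.

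**Figure D4:**
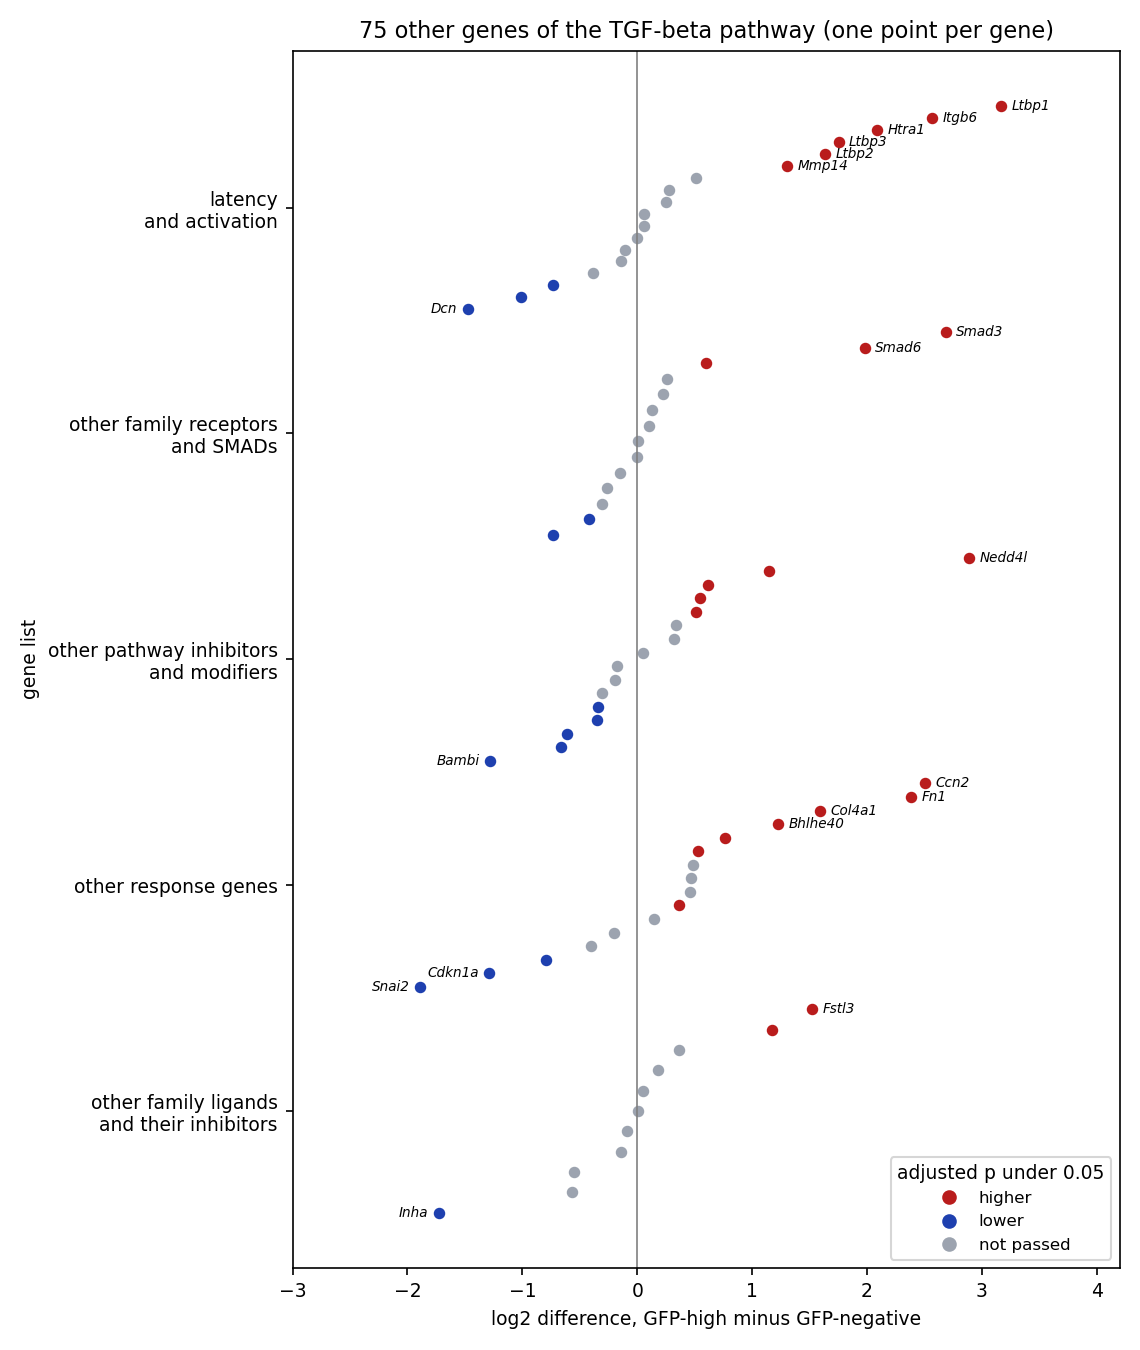
Log2 difference, GFP-high minus GFP-negative (horizontal axis), for the 75 other pathway genes, grouped by list and ordered by size within a list. Red points passed as higher (23), blue as lower (14) and grey did not pass (38), and the further points carry the gene's name. Ltbp1, Nedd4l, Smad3 and Itgb6 lie furthest to the right, and Snai2 and Inha furthest to the left.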

How the data were processed

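The authors deposited log2 expression values made with RMA, per the submitters' processing notes, which state no version. RMA subtracts background, gives all arrays a like distribution and combines a row's probes. That the scale is log2 was read from the values, 0.989 to 13.72. RMA makes no detection call and hides a shift common to most genes. Of 41344 rows, 23520 name exactly 1 gene. The highest-mean row of each gene was kept, leaving 22179 genes, with no filter on low values. Precision is limited by the number of arrays (3 per group).

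Groups came from sample titles. GFP-high minus GFP-negative was tested on all 6 arrays with limma 3.58.1 in R 4.3.3 (lmFit and eBayes, 4.50 prior and 4 residual degrees of freedom, no block), two-sided, with Benjamini-Hochberg adjustment over all genes. All adjusted p-values are from that test unless another setting is named. The test was tried on simulated data. A permutation of 3 against 3 cannot give a p below 0.10, so none is given.

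The 9 genes and the lists were chosen with earlier results of these data known. Besides the 9, the named genes are the 4 of each list that changed most in absolute size, and Itgb6, Itgb8, Itgav, Ltbp1, Ltbp3, Smad2, Smad3 and Smad4. Ltbp2, Ltbp4, Mmp14, Thbs1, Dcn, Bhlhe40, Angptl4, Cdkn2b, Acta2, Cdkn1a and Klf10 fall outside this rule and were chosen after their values were seen. The same holds for some markers and genes of the closing section. Figures used Python 3.11.15 with matplotlib 3.10.9. Some genes of the lists were not analysed here. Alternatives were median centring, quantile normalization, no genes of the lowest 30%, mean or separate rows, trend and robust settings, array weights, a replicate block, each array left out, no moderation, and a minimum difference of 1.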

Additional observations from a re-analysis of the deposited data

How the results depend on the processing

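The calls for Tgfb1, Tgfb2, Tgfb3, Tgfbr2, Tgfbr3, Smad7 and Pmepa1 kept their direction and passed under all 17 alternatives, which include 1 chosen after seeing the data, the omission of GFP-high replicate 3 together with GFP-negative replicate 2. Their largest adjusted p was 0.0340 (Tgfb3). Some of these alternatives could not move them. Each of these genes has a single row, so the mean and the separate rows gave the same log2 differences. All of them differed by at least 1 in the main fit, so the minimum difference could not remove a call. Leaving out 1 array at a time gave log2 differences of 2.84 to 3.28 for Tgfb2 and -1.85 to -1.44 for Tgfb1. Tgfbr1 gained a call under 4 alternatives and Skil under 1, as given above. A minimum difference of 1 reduced the calls over all genes to 1249 higher and 1335 lower, and the pathway genes called lower from 14 to 6, by its construction. It reduced the pathway genes called higher as well, since only 22 of the 75 differed by at least 1 in either direction. Smad4, near 0, changed sign with median centring (-0.0066) and when single arrays were left out (-0.024 to 0.040). Itgb8 read -0.026 without GFP-high replicate 3 and GFP-negative replicate 2, and passed as higher (0.58) without GFP-high replicate 2; the cause was not tested. The labels do not say that same-numbered arrays share a pool, so the replicate numbers were not taken as pairs. Deviations from the group means correlated at 0.11, -0.03 and -0.00 between same-numbered arrays and at -0.07 to 0.06 between others. These values, from 3 arrays per group, cannot decide whether the arrays are paired. With the replicate block 2729 genes were higher and 3443 lower, and of the 9 genes 5 were higher and 2 lower as before; among the pathway genes named, the block changed the call of Gdf11.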

Other observations

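As a description over 6 arrays that fall into 2 groups, the annotated genes whose values were most like those of Tgfb1 by Pearson correlation were Cpe, Cntnap4 and Tmem198, all lower in GFP-high cells (log2 differences -2.23, -2.05 and -1.11). Those most like Tgfb2 were Endod1 (0.87), Igfbp6 (1.09) and Slc3a2 (0.95), and those most like Tgfbr2 were Pik3c3 (0.25), P2rx4 (1.21) and Rplp1 (0.40). Correlations above 0.95 were reached by 1499 genes with Tgfb1, 1392 with Tgfb2 and 1219 with Tgfbr2, so these neighbours stand among many.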
